A study of Mus musculus with 12 samples.

Results

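SAGA, ATAC and TFIID are multi-subunit complexes that act on histones and promoters, and ataxin-7, the protein with the expanded repeat in spinocerebellar ataxia type 7, is a subunit of SAGA. The genes described here are those for SAGA, ATAC, TFIID and Mediator subunits together with histone deacetylases, demethylases, methyltransferases, acetyltransferases and the readers of the ING and BRD families. They were taken by name from the table of all genes: every row whose symbol starts with Atxn7l, Tada, Supt, Hdac, Kdm or Kmt, or with Taf, Kat, Ing, Brd or Med and a digit, and the rows of Usp22, Eny2 and Trrap. That gave 89 of 7667 genes, of which 22 belong to the complexes around ataxin-7 (SAGA, ATAC, TFIID and an ataxin-7 paralog) and 67 are other chromatin regulators.

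The RNA came from whole cerebellum of fxSCA7 92Q mice, which carry 92 CAG repeats, and of wild-type littermates with repeats of normal length. The 4 groups were 92Q at 29 weeks, wild type at 29 weeks, 92Q at 12 weeks and wild type at 12 weeks. Every group had 3 sequencing libraries made from pools of 3 mice, 12 libraries in all. The labels used here do not give the sex of the mice or the promoter that drives the expanded gene, and Atxn7 itself was not analysed here. The deposited table holds 1 normalized score per gene and condition, rounded to a whole number, so no value below has a replicate error and no test was possible: higher and lower describe these values alone. A log2 ratio is the ratio of 2 scores after adding 1 to each, and its rounding range is what moving each score by 0.5 allows. A step of 1 unit is a log2 ratio of 0.13 at a score of 10 and of 0.06 at 22. The scale of the score and its relation to gene length are not given, so levels are compared between conditions and never between genes.

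SAGA is a coactivator with several modules. Its acetyltransferase module, built on Kat2a or Kat2b with Tada adaptors, acetylates histones; the deubiquitinase module, where ataxin-7 holds Usp22, Atxn7l3 and Eny2 in the complex, removes ubiquitin from them; and Trrap binds transcription activators. TFIID recognises core promoters, Mediator joins activators to RNA polymerase II, and deacetylases and demethylases remove marks that acetyltransferases and methyltransferases add.

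The row filter matters for what can be said. Every one of the 7667 rows reached a score of 10 in at least 1 condition. RefSeq (GRCm38.p6) lists 132 protein-coding genes whose names meet the rule. The table has 88 of them under the current symbol and Taf4a under an older one, and 43 have no row under the rule. Kat14, Kmt5b and Kmt5c stand in the table under the older names Csrp2bp, Suv420h1 and Suv420h2. Genes without a row, which were not analysed here, include Hdac1, Hdac4, Hdac7, Hdac9, Kdm5a, Kdm5d, Taf5, Taf9 and Taf10. All 4 genes of the deubiquitinase group were measured, against 6 of 12 TFIID-only subunits and 4 of 7 SAGA core subunits. The members' scores lay between 9 and 87. In 84 members all 4 conditions reached 10. Of the remaining 5, Med8 reached 10 in wild type at 12 weeks alone and Med12l in wild type at 29 weeks alone. In both genotypes Ing3 reached 10 at 29 weeks alone and Supt4a at 12 weeks alone. A row kept through 1 condition had to be highest there, and a row kept through 1 age had to be higher at that age in at least 1 genotype.

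The members varied little. The highest of the 4 scores exceeded the lowest by a median factor of 1.09 and at most by 1.26, in Eny2. In 66 members the 4 scores spanned no more than 2 units, and Brd8, Ing1, Kdm5b and Taf4a had the same score in all 4. None of the members is among the 99 genes of the authors' deposited table of selected genes.

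At 29 weeks no member was 1.2-fold apart between 92Q and wild type in either direction, where 6.90% of all 7666 genes compared were, and none was 1.5-fold apart, where 1.27% were. Past 1.1-fold 8 members were apart in either direction (background 23.5%): 5 were higher in 92Q (background 15.0% of all genes) and 3 were lower (background 8.47%), of which Med12l had its direction from the row filter. These are shares of 5.62% and 3.37% of the 89. The members' median log2 ratio was 0.00, as over all genes, with 41 higher, 19 lower and 29 at the same score.

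The genes around ataxin-7 lay mostly at or above wild type at 29 weeks. Of the 22, 12 were higher in 92Q, 1 was lower and 9 were equal, with a median log2 ratio of 0.04. Of the other 67 chromatin regulators 29 were higher, 18 lower and 20 equal, with a median of 0.00. Over all genes 49.5% were higher, 26.1% lower and 24.4% equal. Of the 13 that differed, 7 did so by 1 unit and 6 by 2 units or more. With columns rescaled by median ratios the genes at equal scores, such as Trrap and Supt7l, lie at -0.03, below 0.

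The 3 deubiquitinase genes Usp22, Eny2 and Atxn7l3, and Atxn7l3b, which is grouped with them as a paralog, were above wild type at 29 weeks. For Atxn7l3 the difference was 1 unit, which rounding alone could give. Usp22, the ubiquitin protease that gives the module its activity, scored 78 in 92Q and 69 in wild type at 29 weeks, and 68 in 92Q and 65 in wild type at 12 weeks. Its score of 78 stands above the other 3 conditions, which lie within 4 units of one another. The log2 ratio was 0.17 at 29 weeks (rounding range 0.16 to 0.19) and 0.06 at 12 weeks (0.04 to 0.09). Usp22 had the largest genotype ratio of any member at 29 weeks in the higher direction. In mm10 the whole gene, as GENCODE M21 annotates it, spans chr11:61151785-61175055.

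Eny2, the small subunit that SAGA shares with the mRNA export complex, scored 34 in 92Q and 32 in wild type at 29 weeks, and 30 in 92Q and 27 in wild type at 12 weeks. Both 92Q scores were above wild type of the same age and both 29-week scores above those at 12 weeks. Its log2 ratio was 0.08 at 29 weeks (rounding range 0.04 to 0.13) and 0.15 at 12 weeks (0.10 to 0.20).

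Atxn7l3, the zinc-finger adaptor of Usp22, scored 44 in 92Q and 43 in wild type at 29 weeks, and 43 in 92Q and 45 in wild type at 12 weeks. Atxn7l3b, a paralog that binds Eny2 outside SAGA, scored 80 in 92Q and 77 in wild type at 29 weeks, and 84 in 92Q and 87 in wild type at 12 weeks. For these paralogs the sign of the genotype difference was opposite at the 2 ages. Rounding alone could give the 29-week difference of Atxn7l3 (log2 ratio 0.03, rounding range 0.00 to 0.06). Atxn7l1, the one measured paralog of ataxin-7, scored 27 in 92Q and 25 in wild type at 29 weeks, and 28 in 92Q and 26 in wild type at 12 weeks, 2 units higher in 92Q at either age (log2 ratios 0.11 and 0.10).

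**Figure D1:**
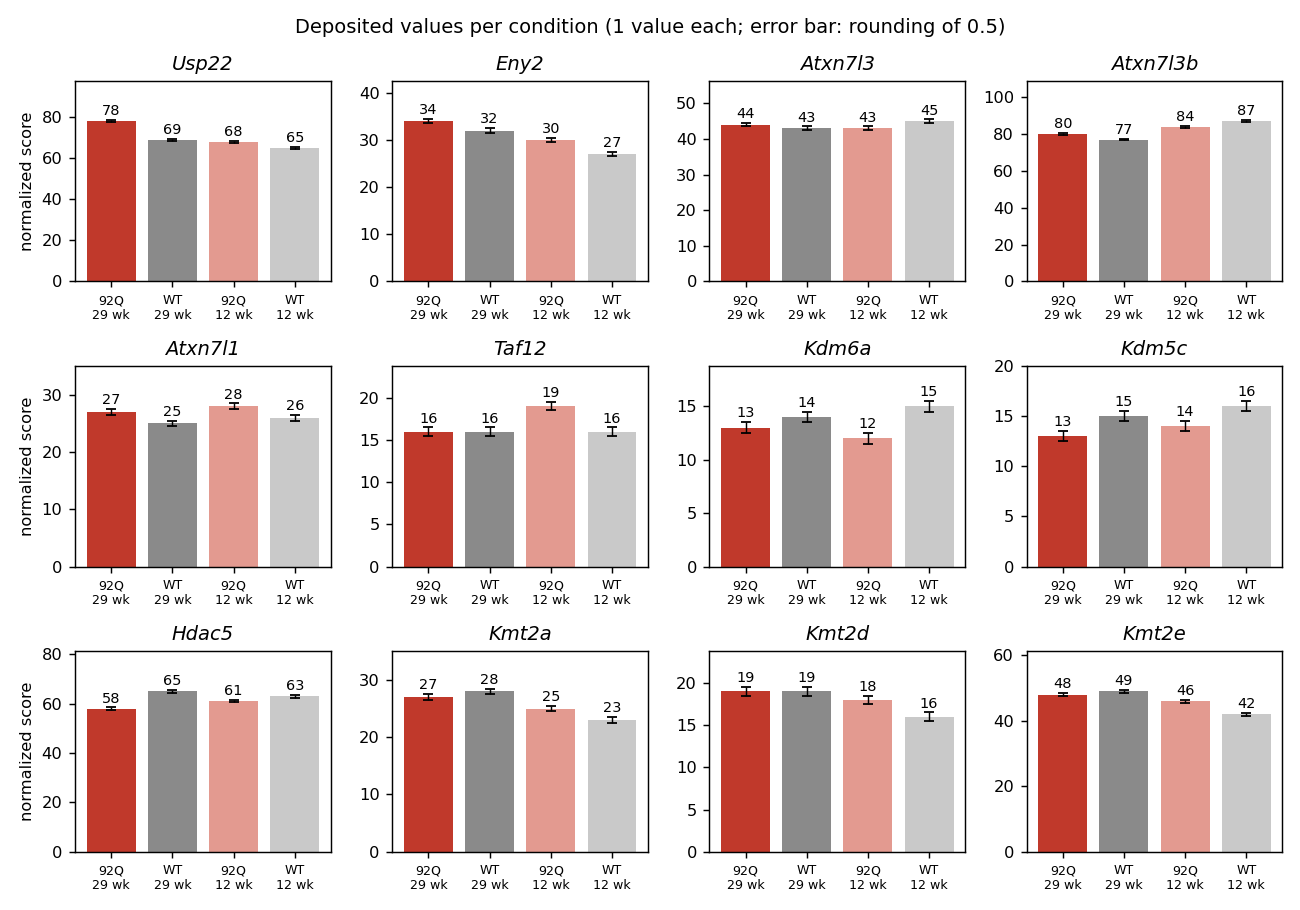
Deposited normalized scores of 12 chromatin genes in 92Q and wild type at 29 and 12 weeks, 1 bar per condition from 0, with error bars of 0.5 for rounding only. Usp22 is highest in 92Q at 29 weeks at 78, Kdm6a and Kdm5c are lower in 92Q at either age, and Kmt2a, Kmt2d and Kmt2e are lowest in wild type at 12 weeks.

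In the acetyltransferase module 3 of 5 genes were higher in 92Q at 29 weeks and none was lower. Kat2a, the GCN5 acetyltransferase, scored 24 in 92Q and 22 in wild type at 29 weeks (log2 ratio 0.12, rounding range 0.06 to 0.18), and 23 in 92Q and 24 in wild type at 12 weeks. Kat2b, the related PCAF enzyme, scored 12 in 92Q and 11 in wild type at 29 weeks and 12 in each genotype at 12 weeks. The ATAC adaptor Tada2a scored 13 in 92Q and 12 in wild type at both ages. Its SAGA counterpart Tada2b scored 11 in each genotype at 29 weeks and 10 in each at 12 weeks, and Tada3, common to both complexes, 15 at 29 weeks and 16 at 12 weeks in either genotype. Of these 5 genes, Kat2a alone had a 29-week difference larger than rounding can produce.

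The SAGA core and scaffold genes were within 1 unit of wild type at 29 weeks. Trrap, the large activator-binding scaffold, scored 13 in each genotype at 29 weeks, and 13 in 92Q and 11 in wild type at 12 weeks. The 3 other conditions thus shared 1 score and wild type at 12 weeks lay 2 units below it (12-week log2 ratio 0.22, rounding range 0.11 to 0.33). Tada1 scored 17 in 92Q and 16 in wild type at 29 weeks, and 16 in 92Q and 17 in wild type at 12 weeks. Supt20 scored 13 in 92Q and 12 in wild type at 29 weeks and 13 in each genotype at 12 weeks. Supt7l was 12 in every condition except wild type at 12 weeks, where it was 11.

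Among the histone-fold TAFs that SAGA and TFIID share, 2 of 4 had a row. Taf12 scored 16 in 92Q and 16 in wild type at 29 weeks, and 19 in 92Q and 16 in wild type at 12 weeks, so a single condition stood apart (12-week log2 ratio 0.23, rounding range 0.16 to 0.31). It was the highest genotype ratio of any member at 12 weeks. Taf9b scored 19 in 92Q and 17 in wild type at 29 weeks (log2 ratio 0.15), and 18 in 92Q and 19 in wild type at 12 weeks.

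TFIID subunits that SAGA lacks hardly differed. Of 6, 4 had equal scores in the genotypes at 29 weeks and 4 at 12 weeks, and all 6 lay within 1 unit at either age. Taf1, the largest subunit, scored 12 in each genotype at 29 weeks and 11 in each at 12 weeks, and Taf4a 12 throughout. Taf6 scored 21 in each genotype at 29 weeks, and 22 in 92Q and 23 in wild type at 12 weeks. Taf2 was 11 in every condition but wild type at 12 weeks, at 10. Taf11 was 19 in every condition but wild type at 29 weeks, at 18. Taf3 was 20 in every condition but 92Q at 29 weeks, at 19, and is the 1 gene around ataxin-7 that was lower in 92Q at that age. Taf15, an RNA-binding protein outside TFIID proper, scored 14 in each genotype at 29 weeks, and 15 in 92Q and 14 in wild type at 12 weeks.

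**Figure D2:**
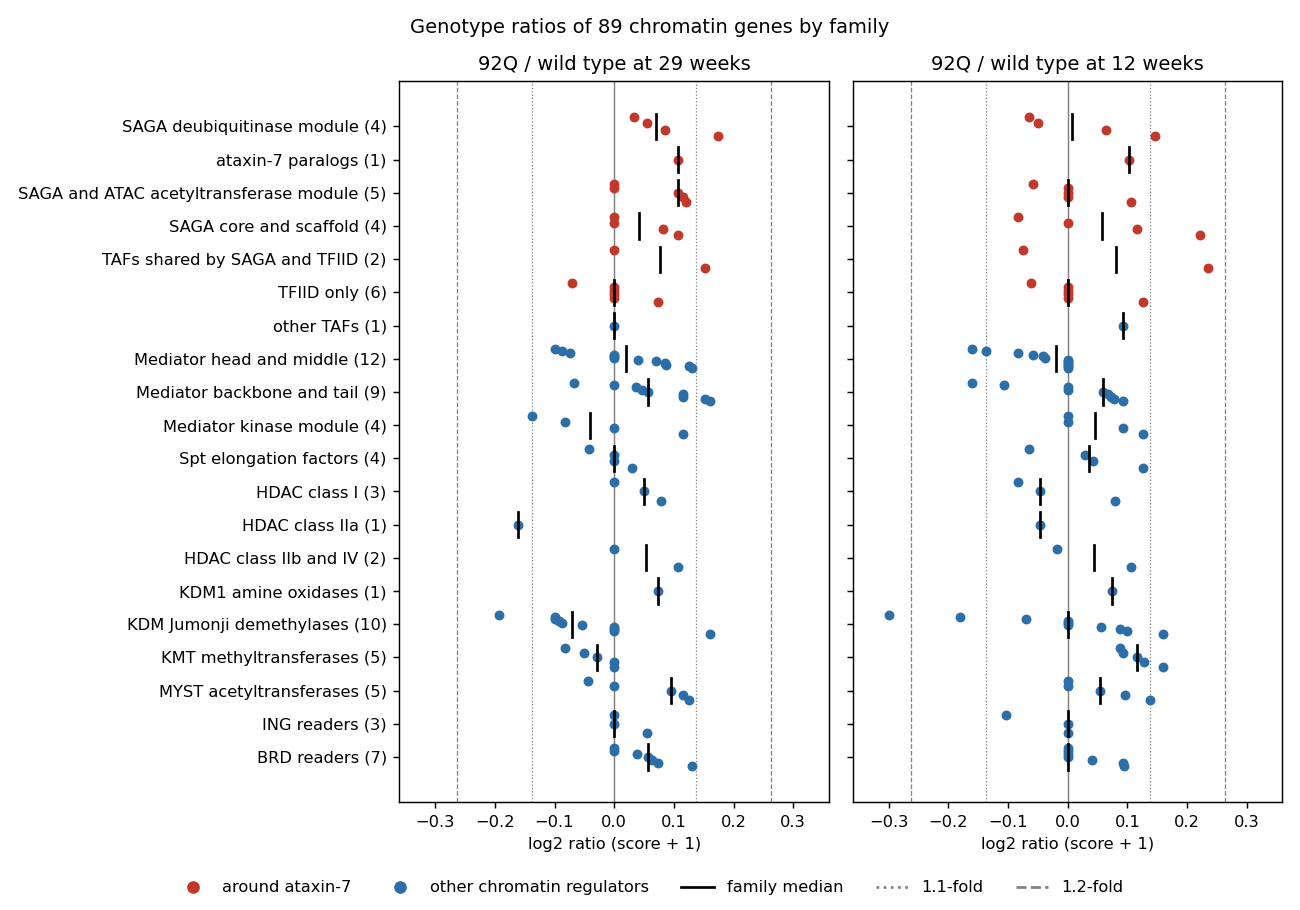
Log2 ratios of 92Q to wild type at 29 weeks (left) and 12 weeks (right) for each of the 89 genes, by family with its number of genes; black bars are family medians, dotted and dashed lines mark 1.1-fold and 1.2-fold. The deubiquitinase genes all lie above 0 at 29 weeks and on either side of 0 at 12 weeks, and Kdm6a at 12 weeks is the single point past 1.2-fold.

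Subunits of SAGA and ATAC that the table lists under other names were read from a separate list. Of 11 names 7 had a row, and at 29 weeks 4 were higher in 92Q, 0 lower and 3 equal (median log2 ratio 0.07). Mbip, an ATAC subunit, was the one past 1.1-fold (background 23.5% in either direction), at 15 in 92Q and 13 in wild type. None was past 1.2-fold at either age (background 6.90% at 29 weeks and 2.04% at 12 weeks).

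At 12 weeks 1 member was past 1.2-fold between the genotypes, where 2.04% of 7660 genes were, and none past 1.5-fold (background 0.248%). Past 1.1-fold there were 11 in either direction (background 12.5%): 6 members were higher in 92Q (background 4.50%) and 5 were lower (background 8.02%), shares of 6.74% and 5.62% of the 89. The higher ones were Taf12, Trrap, Kdm4a, Kmt2d, Eny2 and Kat6b, the lower ones Kdm6a, Kdm5c, Med10, Med30 and Med8, of which Med8 had its direction from the row filter. The members' median was 0.00, with 37 higher, 23 lower and 29 equal, against 32.1% higher, 36.7% lower and 31.1% equal over all genes.

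The X-linked demethylase genes Kdm6a and Kdm5c were lower in 92Q at both ages. Kdm6a, which removes the Polycomb methyl mark from histone tails, scored 13 in 92Q and 14 in wild type at 29 weeks, and 12 in 92Q and 15 in wild type at 12 weeks. The 92Q scores were below both wild-type scores. The log2 ratio was -0.10 at 29 weeks, where rounding alone could give it (range -0.20 to 0.00), and -0.30 at 12 weeks (-0.40 to -0.20), the lowest of any member. Kdm5c, which removes methyl marks typical of active promoters, scored 13 in 92Q and 15 in wild type at 29 weeks, and 14 in 92Q and 16 in wild type at 12 weeks. Its log2 ratios were -0.19 (rounding range -0.29 to -0.10) and -0.18 (-0.27 to -0.09), and its 29-week ratio was the lowest of any member at that age.

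The sequences before the starts of these genes are given because both genes are X-linked and were lower together. RefSeq (GRCm38.p6, the assembly of mm10) gives 250 bases before and 50 after each start. Capitals mark matches, on either strand, to these motifs: the GC box with the letters GGGCGG, the CCAAT box with the letters its name gives, the TATA box read as TATAAA, the NRF1 motif, the ETS motif read as CCGGAAG, the cyclic AMP element read as TGACGTCA and the E-box read as CACGTG. Kdm6a lies at chrX:18162325-18162624, plus strand, and Kdm5c at chrX:152232977-152233276, plus strand.
Kdm6a promoter: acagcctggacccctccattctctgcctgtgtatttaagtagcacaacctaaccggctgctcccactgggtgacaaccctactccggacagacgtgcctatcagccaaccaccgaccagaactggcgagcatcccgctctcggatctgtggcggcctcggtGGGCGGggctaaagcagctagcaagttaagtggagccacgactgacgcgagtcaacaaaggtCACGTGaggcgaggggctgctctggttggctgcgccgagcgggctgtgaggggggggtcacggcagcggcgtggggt
Kdm5c promoter: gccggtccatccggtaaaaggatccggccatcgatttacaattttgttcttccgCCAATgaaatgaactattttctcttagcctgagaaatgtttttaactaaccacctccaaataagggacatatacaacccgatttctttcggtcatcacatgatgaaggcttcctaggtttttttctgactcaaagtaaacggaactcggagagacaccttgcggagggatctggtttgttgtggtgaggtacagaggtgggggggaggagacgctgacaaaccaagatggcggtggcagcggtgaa

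The Kdm6a window held 1 GC box and 1 E-box, and the Kdm5c window 1 CCAAT box. Of all 32851 windows of that length from RefSeq, 35.7% hold a GC box, 7.15% an E-box and 37.4% a CCAAT box, so the GC box and the CCAAT box are common. The windows share no marked motif. G and C make up 63.0% of the Kdm6a window and 47.0% of the Kdm5c window, against a median of 52.7%.

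Kdm6a and Kdm5c are known in mice as genes that escape X inactivation, and sex-linked transcripts differed with genotype in the same samples. Xist, the RNA of the inactive X, scored 25 in 92Q and 63 in wild type at 29 weeks, and 30 in 92Q and 66 in wild type at 12 weeks. The Y-linked Eif2s3y scored 15 in 92Q and 6 in wild type at 29 weeks. At 12 weeks it scored 12 in 92Q against a listed 0 in wild type. The Y-linked Ddx3y scored 11 in 92Q and 5 in wild type at 29 weeks. At 12 weeks it scored 9 in 92Q against a listed 0 in wild type. Ddx3y passed the row filter in 92Q at 29 weeks alone, so its direction at that age came from the filter. Eif2s3y passed the filter in 92Q alone, so the filter bears on its directions. Of the 5 sex-linked markers looked up, 3 had a row; Kdm5d and Uty did not. Ddx3x, another escape gene, looked up after the data were seen, scored 44 in 92Q and 51 in wild type at 29 weeks, and 44 in 92Q and 52 in wild type at 12 weeks. The sex makeup of the pools and the genotype cannot be told apart for Kdm6a and Kdm5c. The other X-linked members, Med12, Med14, Hdac6, Hdac8, Taf1 and Taf9b, had no common direction: 3 were higher, 1 lower and 2 equal at 29 weeks, and 3 higher, 2 lower and 1 equal at 12 weeks.

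**Figure D3:**
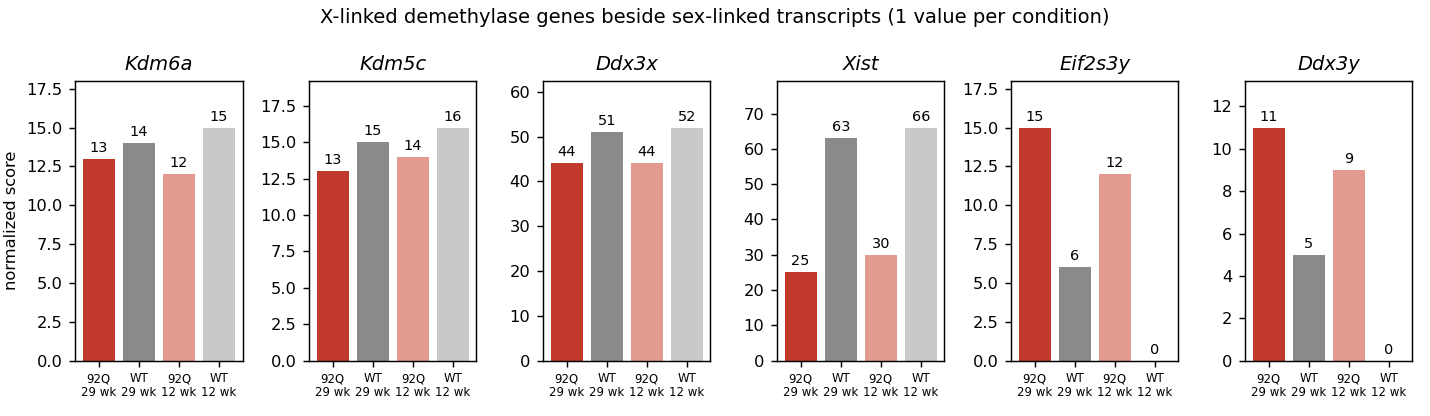
Normalized scores, 1 bar per condition from 0, of Kdm6a and Kdm5c beside the X-linked Ddx3x, Xist and the Y-linked Eif2s3y and Ddx3y. Xist is 25 and 30 in 92Q against 63 and 66 in wild type, the Y-linked genes are higher in 92Q, and both demethylase genes are lower in 92Q. The row filter bears on the directions of the Y-linked genes.

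The other 8 Jumonji demethylase genes split: 1 was higher, 4 were lower and 3 equal in 92Q at 29 weeks, with a median log2 ratio of -0.03. At 12 weeks 4 were higher, 1 was lower and 3 equal (median 0.03). With Kdm6a and Kdm5c counted, the 10 genes had a median of -0.07 at 29 weeks and 0.00 at 12 weeks. Kdm4a, an eraser of repressive and elongation-linked marks, was the 1 higher gene, at 18 in 92Q and 16 in wild type at both ages (log2 ratio 0.16, rounding range 0.08 to 0.24). The 4 lower genes were each 1 unit below wild type at 29 weeks. Kdm1a, the amine oxidase that demethylates without a Jumonji domain, was 19 in 92Q and 18 in wild type at both ages. Among demethylases under other names, 6 of 11 had a row, and 4 of those were lower at 29 weeks. Hr, a demethylase and nuclear receptor corepressor, scored 23 in 92Q and 28 in wild type at 29 weeks, and 31 in each at 12 weeks (29-week log2 ratio -0.27). It was the only gene of all 68 measured pathway genes outside the members that was past 1.2-fold between genotypes at either age. The background was 6.90% at 29 weeks and 2.04% at 12 weeks.

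Among the 6 deacetylase genes Hdac5 alone was lower in 92Q at 29 weeks. Hdac5, a class IIa deacetylase that shuttles between nucleus and cytoplasm with neuronal activity, scored 58 in 92Q and 65 in wild type at 29 weeks, and 61 in 92Q and 63 in wild type at 12 weeks. Its lowest score was in 92Q at 29 weeks (log2 ratio -0.16, rounding range -0.18 to -0.14). The class I genes Hdac3 and Hdac8 went separate ways by small steps: Hdac3 scored 37 in 92Q and 35 in wild type at 29 weeks, and 36 in 92Q and 34 in wild type at 12 weeks, while Hdac8 was 15 in each genotype at 29 weeks, and 16 in 92Q and 17 in wild type at 12 weeks. Hdac11, the class IV enzyme, was 83 in each genotype at 29 weeks, and 76 in 92Q and 77 in wild type at 12 weeks. Hdac6, a tubulin deacetylase, scored 13 in 92Q and 12 in wild type at both ages. Of the other class IIa genes, Hdac4, Hdac7 and Hdac9, none had a row.

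Corepressor subunits that carry deacetylases were mostly at or above wild type at 29 weeks. Of 21 measured subunits of 23, 13 were higher in 92Q, 4 lower and 4 equal (median log2 ratio 0.06). Over all genes 49.5% were higher and 26.1% lower. Past 1.1-fold 2 subunits were higher (background 15.0%) and 1 lower (background 8.47%). The lower one was Rcor1, at 9 in 92Q and 10 in wild type, which reached 10 in wild type at 29 weeks alone, so that its direction came from the row filter. Sin3b, a scaffold of the SIN3 complex, was among the higher, at 31 in 92Q and 26 in wild type (log2 ratio 0.25). At 12 weeks Sin3b was 26 in 92Q and 27 in wild type.

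No Mediator gene differed between genotypes by more than 2 units, and of the 25, 5 had equal scores at 29 weeks and 10 at 12 weeks. At 29 weeks 6 of the 12 head and middle subunits were above wild type in 92Q and 3 below, and 0 were higher and 6 lower at 12 weeks. Of the 9 backbone and tail subunits 7 were higher and 1 lower at 29 weeks, and 5 higher and 2 lower at 12 weeks. Over all genes 49.5% were higher and 26.1% lower at 29 weeks, and 32.1% higher and 36.7% lower at 12 weeks. Less the mean of all genes of similar length, a step described below, 4 of the 12 were above 0 and 8 below at 29 weeks. At 12 weeks 6 were above 0 and 6 below (medians -0.05 and -0.001). Of the 9, 7 were then above 0 and 2 below at 29 weeks, and 6 above and 3 below at 12 weeks. Med16, a tail subunit, scored 18 in 92Q and 16 in each of the other 3 conditions (29-week log2 ratio 0.16). Med22, a head subunit, scored 22 in 92Q and 20 in wild type at 29 weeks, and 23 in 92Q and 24 in wild type at 12 weeks. Med7 of the middle module was 13 in 92Q at 29 weeks and 14 in the other conditions, and Med14, the backbone, was 20 in 92Q and 21 in wild type at 29 weeks and 21 in 92Q and 20 in wild type at 12 weeks. In the kinase module Med12 scored 12 in 92Q and 11 in wild type at 29 weeks, and 11 in 92Q and 10 in wild type at 12 weeks, while Med12l was 10 in wild type at 29 weeks and 9 in the other conditions.

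Acetyltransferases of the MYST family and the readers also lay close to wild type. Kat6b scored 11 in 92Q and 10 in wild type at 29 weeks, and 10 in 92Q and 9 in wild type at 12 weeks, and Kat6a 31 in 92Q and 32 in wild type at 29 weeks, and 30 in 92Q and 28 in wild type at 12 weeks. Of the 7 BRD genes, bromodomain proteins that bind acetylated histones, 5 were higher, 0 lower and 2 equal at 29 weeks (median 0.06). Brd7, a subunit of a chromatin remodelling complex, was 20 in wild type at 29 weeks and 22 in the other 3 conditions. Brd1 was 16 in each genotype at 29 weeks, and 15 in 92Q and 14 in wild type at 12 weeks. Of the ING genes, Ing4 scored 26 in 92Q and 25 in wild type at 29 weeks, and 26 in 92Q and 28 in wild type at 12 weeks, and Ing1 was 10 throughout.

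The Spt elongation factors travel with RNA polymerase II. Supt5 scored 48 in 92Q and 47 in wild type at 29 weeks, and 49 in 92Q and 48 in wild type at 12 weeks, and Supt6 33 in 92Q and 34 in wild type at 29 weeks, and 34 in 92Q and 33 in wild type at 12 weeks. Supt4a scored 9 in each genotype at 29 weeks, and 11 in 92Q and 10 in wild type at 12 weeks. Its copy Supt4b stands in the table under the name Gm3258, at 10 in 92Q and 9 in wild type at 29 weeks and 8 in 92Q and 11 in wild type at 12 weeks. Reads can be divided between such copies, so each value alone is uncertain. Their sums were 19 in 92Q and 18 in wild type at 29 weeks, and 19 in 92Q and 21 in wild type at 12 weeks.

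With age in wild type 58 members of 89 stayed within 1 unit, against 72 between genotypes at 29 weeks and 67 at 12 weeks. Over all genes 4199 of 7663 stayed within 1 unit with age in wild type. Between genotypes 4476 of 7666 did so at 29 weeks and 5360 of 7660 at 12 weeks. Between 29 and 12 weeks 12 members were past 1.1-fold higher at 29 weeks (background 10.6%) and 11 past 1.1-fold lower (background 17.1%), shares of 13.5% and 12.4% of the 89. In either direction that makes 23 (background 27.7%), Med12l and Med8 with their filter-set directions included. Ing3, which reached 10 at 29 weeks alone, and Supt4a, which reached 10 at 12 weeks alone, are also among them. The row filter bears on the age directions of Ing3 and Supt4a. Past 1.2-fold there was 1, Kmt2a, where 6.26% of all 7663 genes were, and none was past 1.5-fold (background 0.365%). The higher ones included 4 of the 5 Kmt2 genes, Trrap, Kat6a and Kdm6b. The lower ones included Med22, Med10, Med28, Kat8, Hdac2 and Atxn7l3b.

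All 5 Kmt2 genes, grouped here by name as methyltransferases, were higher at 29 than at 12 weeks in wild type. Kmt2a scored 28 in wild type at 29 weeks and 23 at 12 weeks (log2 ratio 0.27, rounding range 0.22 to 0.33), and 27 and 25 in 92Q at those ages. Kmt2d scored 19 in wild type at 29 weeks and 16 at 12 weeks (0.23), and 19 and 18 in 92Q. Kmt2e scored 49 in wild type at 29 weeks and 42 at 12 weeks (0.22), and 48 and 46 in 92Q. Kmt2c scored 17 in wild type at 29 weeks and 15 at 12 weeks, and 16 at both ages in 92Q, and Kmt2b 15 in wild type at 29 weeks and 14 at 12 weeks, and 15 at both ages in 92Q. For each of the 5, wild type at 12 weeks was the lowest of the 4 conditions, and the same score makes all 5 higher in 92Q at 12 weeks (median 0.12), where the comparison shares it. At 29 weeks 0 were higher and 3 lower in 92Q (median -0.03).

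Promoter windows of the Kmt2 genes in the RefSeq table are shown because these genes were higher with age together; capitals mark the same motifs as above. Kmt2a lies at chr9:44881240-44881539, Kmt2c at chr5:25498734-25499033 and Kmt2d at chr15:98871156-98871455, all on the minus strand and written in the gene's direction.
Kmt2a promoter: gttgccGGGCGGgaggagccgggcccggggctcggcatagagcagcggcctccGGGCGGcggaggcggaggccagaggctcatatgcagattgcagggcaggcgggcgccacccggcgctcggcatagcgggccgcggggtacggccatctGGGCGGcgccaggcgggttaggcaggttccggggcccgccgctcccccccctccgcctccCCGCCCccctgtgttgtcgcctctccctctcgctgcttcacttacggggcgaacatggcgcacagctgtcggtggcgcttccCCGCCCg
Kmt2c promoter: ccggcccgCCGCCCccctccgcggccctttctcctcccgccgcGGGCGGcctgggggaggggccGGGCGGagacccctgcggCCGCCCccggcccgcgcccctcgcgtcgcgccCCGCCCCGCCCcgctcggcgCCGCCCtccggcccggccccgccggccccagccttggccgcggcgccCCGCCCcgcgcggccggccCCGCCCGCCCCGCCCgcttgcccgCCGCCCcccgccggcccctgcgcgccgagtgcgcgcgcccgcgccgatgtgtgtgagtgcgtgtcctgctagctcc
Kmt2d promoter: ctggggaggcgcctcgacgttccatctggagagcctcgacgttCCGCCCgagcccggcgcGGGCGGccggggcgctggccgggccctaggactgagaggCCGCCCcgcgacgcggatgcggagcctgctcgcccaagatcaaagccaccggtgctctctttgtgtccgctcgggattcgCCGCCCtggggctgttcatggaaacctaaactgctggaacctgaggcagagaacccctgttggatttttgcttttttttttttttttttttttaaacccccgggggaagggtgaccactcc

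The marked letters in these 3 windows are all GC boxes: 5 in Kmt2a, 12 in Kmt2c, where some overlap, and 4 in Kmt2d. None of the other motifs is in these windows. G and C make up 75.7% of the Kmt2a window, 88.0% of that of Kmt2c and 62.7% of that of Kmt2d.

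Transcript length ran along with these ratios. The longest annotated transcripts of Kmt2a, Kmt2c and Kmt2d have 16470, 14967 and 19823 bases, against a median of 3755 over the members. Across the 89 members the log2 ratio of 29 to 12 weeks in wild type had a Spearman correlation of 0.65 with transcript length, and across 7631 genes one of 0.50. These points share libraries and normalization, so the values describe the table and carry no test. Among the shortest 1527 genes (72 to 1829 bases) the median ratio was -0.12, and of the 11 members there 0 were higher, 10 lower and 1 equal at 29 weeks. Among the longest 1527 genes (5347 bases and more) the median over all genes was 0.06, and of the 25 members there 19 were higher, 3 lower and 3 equal.

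The genotype ratios ran with length too, in opposite senses at the 2 ages. At 29 weeks the correlation was -0.37 across the members and -0.20 across 7634 genes, and at 12 weeks it was 0.36 across the members and 0.38 across 7628 genes. With age in 92Q it was 0.26 across the members and 0.07 across 7635 genes. The comparisons share conditions, so these are not separate results. At 29 weeks 5 of the 25 members in that longest class were above wild type in 92Q and 14 below, and 16 were higher and 2 lower at 12 weeks. RNA integrity of the pools is not given in the labels used here, and its part in the length pattern was not tested.

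**Figure D4:**
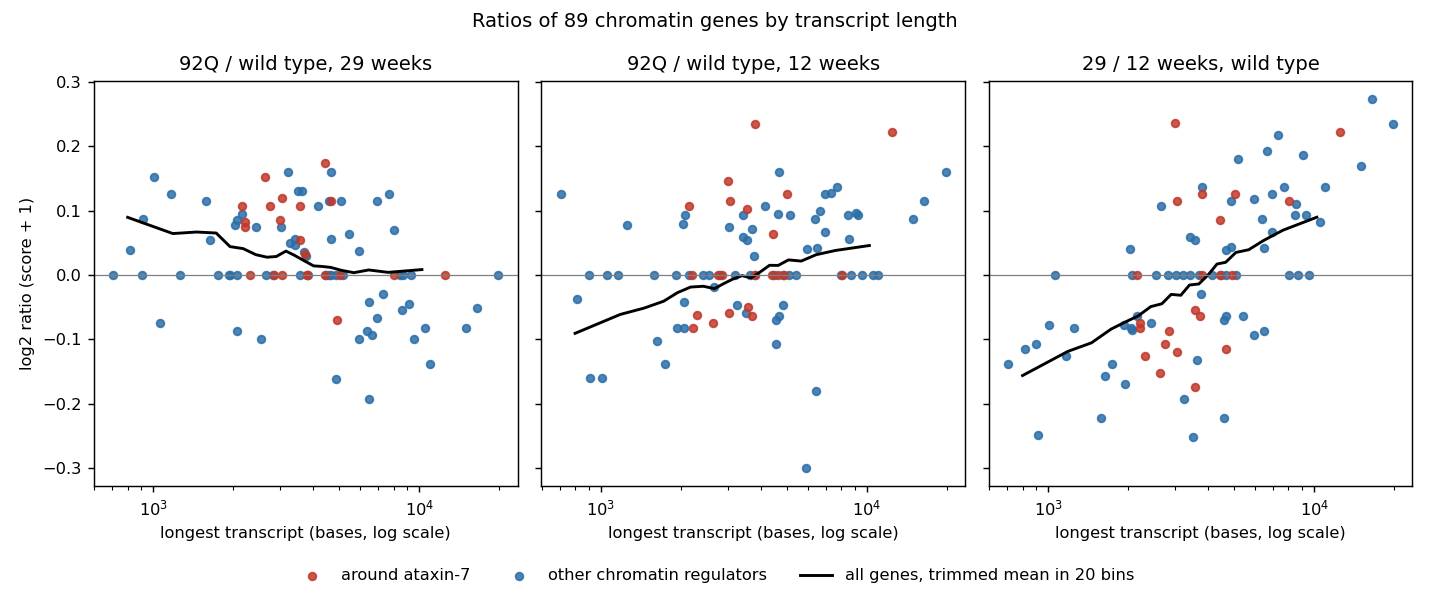
Log2 ratios of the 89 genes (points) against the length of the longest annotated transcript on a log axis, for 92Q to wild type at 29 weeks, at 12 weeks, and 29 to 12 weeks in wild type; the black line is the trimmed mean of all genes in 20 bins of length. In wild type with age the line climbs from -0.16 in the shortest bin to 0.09 in the longest, and the points follow it with a correlation of 0.65.

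Ratios were therefore also taken less the trimmed mean of all genes of similar length, a step added after the data were seen. The 5 Kmt2 genes then had a median of 0.14 with age in wild type, against 0.22 without the step, and all 5 stayed above 0, with Kmt2a at 0.18 and Kmt2b at 0.02. Before the step the rounding range of Kmt2b was 0.00 to 0.19. Kmt2a, Kmt2c and Kmt2d are longer than the median of 10232 bases in their bin. The step can therefore take off too little for these genes, and what remains cannot be read as free of length. Usp22 was 0.16 at 29 weeks and Hdac5 was -0.17. Kdm5c was -0.20 at 29 weeks and Kdm6a -0.32 at 12 weeks. Taf12 was 0.24 and Trrap 0.18 at 12 weeks. For the 16 SAGA and ATAC genes without the TFIID-only subunits, 11 above wild type and 0 below at 29 weeks, the median was 0.08 before the step and 0.05 after it, with 11 above and 5 below 0. Without Atxn7l3b, 10 of the 15 were higher and 0 lower, with medians of 0.08 and 0.06. The 22 genes around ataxin-7 had a median of 0.02 after it, with 12 above and 10 below 0, and the other 67 members one of -0.01, with 26 above and 41 below. At 29 weeks the mean subtracted was above 0 in all 20 bins of length. Genes at equal scores thus fell below 0 by construction, and the 5 below among the 16 are those at equal scores.

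With age in 92Q, 5 members were past 1.1-fold higher at 29 weeks (background 15.2%) and 3 lower (background 11.9%), shares of 5.62% and 3.37%. In either direction that makes 8 (background 27.1%). Past 1.2-fold there was 1, Supt4a, the uncertain gene above, where 9.53% of all genes were, and none was past 1.5-fold (background 1.46%). Supt4a reached 10 at 12 weeks alone and Ing3, among the higher, at 29 weeks alone, so the row filter bears on these directions. Usp22 scored 78 in 92Q at 29 weeks and 68 at 12 weeks (log2 ratio 0.20), Med30 19 and 16 (0.23), Eny2 34 and 30 (0.18), and Taf12 16 and 19 (-0.23). Over the 89 members 28 were higher, 28 lower and 33 equal, against 42.4% higher, 35.4% lower and 22.3% equal of all genes.

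The tissue and its cell makeup set the frame for these small ratios. All 10 Purkinje and all 9 granule neuron markers looked up had a row, with Pcp2 between 871 and 1661 and Gabra6 between 337 and 417. Granule neuron markers were lower in 92Q in 9 of 9 genes at 29 weeks (median log2 ratio -0.15, sums 2244 in 92Q and 2506 in wild type) and higher in 7 of 9 at 12 weeks (sums 2868 in 92Q and 2758 in wild type). Purkinje markers were lower in 92Q in 10 of 10 genes at both ages, with summed scores of 2956 in 92Q and 4875 in wild type at 29 weeks, and 4499 in 92Q and 5873 in wild type at 12 weeks. Microglia markers were higher in 10 of 10 measured genes at 29 weeks (sums 387 in 92Q and 186 in wild type), and at 12 weeks the sums were 159 in each. Among them Trem2, Cx3cr1 and Cd68 reached 10 in 92Q at 29 weeks alone, so their directions at that age came from the row filter. Of 6 oligodendrocyte markers 5 were higher in 92Q at 29 weeks (median 0.20, sums 3935 in 92Q and 3712 in wild type) and 1 at 12 weeks (sums 3442 in 92Q and 3666 in wild type). Astrocyte and Bergmann glia markers were higher in 4 of 7 at 29 weeks (sums 2606 in 92Q and 2002 in wild type) and in 3 of 7 at 12 weeks (sums 2026 in 92Q and 2046 in wild type), and Gfap scored 235 in 92Q and 95 in wild type at 29 weeks. Apoe weighed most in these sums, at 1552 in 92Q and 1062 in wild type at 29 weeks. Slc1a3, Gdf10 and Aldh1l1 were lower in 92Q at that age. Choroid plexus markers summed to 1473 in 92Q and 478 in wild type at 29 weeks, and to 20 in 92Q and 364 in wild type at 12 weeks, where Sostdc1 and Kl were listed at 0 in 92Q. Except in 92Q at 12 weeks, most of each sum was the single gene Ttr. It scored 1403 in 92Q and 445 in wild type at 29 weeks, and 6 in 92Q and 336 in wild type at 12 weeks. Kcnj13, Clic6, Sostdc1 and Kl reached 10 in 92Q at 29 weeks alone, so their directions at that age came from the row filter too. The part of these cell types in the members' ratios was not tested, and in bulk tissue fewer cells of a type and less RNA per cell cannot be told apart.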

How the data were processed

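Per the submitters' processing notes the build was mm10 and the tools were Cuffdiff 1.3.0, Bowtie 0.12.7 and SAMtools 0.1.12a; what each did is not recorded there. For annotation, normalization and filters, nothing is recorded in the sources used here. Each condition has 1 deposited score per gene, normalized and rounded by the authors to a whole number, so the depth of each library is unknown, and replicate spread is lost: intervals and tests were not possible. The design had allowed for values per library. All 4 columns had a median of 22. Of 7684 rows, 17 had a number in place of a gene name and were left out.

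Log2 ratios used a pseudocount of 1 for genes reaching 5 in one or both conditions, which understates low genes. Members past 1.2-fold and 1.1-fold were counted beside the same share of all genes. Transcript length was that of the longest GENCODE M21 basic transcript (7635 genes); the length step subtracted the mean, trimmed by 10% at each end, in 20 bins. Promoter windows matched 71 members. Calculations used Python 3.11.15, pandas 2.3.3, numpy 2.4.6 and scipy 1.17.1, and were tested on simulated data.

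Members, families and lists were chosen with earlier results of these data known. Named were all genes around ataxin-7, the highest and lowest 29-week genotype ratio of each other family, members past 1.2-fold in any comparison and pathway genes past 1.2-fold between genotypes; further members and pathway genes are examples chosen after their values were seen.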

Additional observations from a re-analysis of the deposited data

Results flagged for a closer look

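For 2 members the genotype difference was 2 units or more in opposite directions at the 2 ages; the difference between ages was not tested, since each condition has 1 value. Med30, a Mediator subunit, scored 19 in 92Q and 17 in wild type at 29 weeks, and 16 in 92Q and 18 in wild type at 12 weeks. Its log2 ratio was 0.31 higher at 29 than at 12 weeks, and 0.19 higher less the mean of genes of similar length (its longest transcript has 1007 bases). Atxn7l3b scored 80 in 92Q and 77 in wild type at 29 weeks, and 84 in 92Q and 87 in wild type at 12 weeks, a difference of 0.10 between the ratios, and of 0.08 with the length step. Over all genes 717 of 7667 (9.35%) had such opposite differences, against 2 of 89 members.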

How the results depend on the processing

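The members' median genotype ratio lay between -0.03 and 0.04 at 29 weeks and between 0.00 and 0.03 at 12 weeks under the alternatives run. Of 736 named genotype ratios recomputed, 717 stayed within their own rounding and 19 did not. Of these 736, 100 without a minimum and 36 with a mean of 20 or more were unchanged by construction. The 19 were 6 with upper quartile scaling, 4 with median ratios, 3 with quantile normalization and 6 with the length step. Counts past 1.2-fold were 0 at 29 weeks between genotypes, and 1 each at 12 weeks, with age in 92Q and with age in wild type. A pseudocount of 5 or a threshold of 1.5-fold made the last 3 counts 0, and a mean of 20 or more made those at 12 weeks and with age in 92Q 0. Upper quartile scaling gave 2 at 12 weeks and 3 with age in wild type, and quantile normalization 2 with age in wild type. At 1.1-fold the counts were 8 at 29 weeks, 11 at 12 weeks, 8 with age in 92Q and 23 with age in wild type, and with length-adjusted ratios, added after the data were seen, 6, 8, 8 and 15. The length-adjusted ratios at 1.2-fold left 1 with age in wild type, Eny2 in place of Kmt2a. The scalings run moved the median of all genes by at most 0.03, enough to put equal scores on either side of 0.

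No paired analysis was possible because each condition has a single deposited score, and leaving out replicates was not run for the same reason. Scores are whole numbers, and a single unit near 10 is a log2 ratio of 0.13.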

Other observations

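Among the 33 pathway genes outside the members whose transcripts have 5347 bases or more, 25 were higher, 2 lower and 6 equal at 29 against 12 weeks in wild type (median log2 ratio 0.10, and 0.03 less the mean of genes of similar length). The genes named here were chosen after their values were seen. Gatad2b, a subunit of the NuRD deacetylase complex, scored 31 in wild type at 29 weeks and 25 at 12 weeks (log2 ratio 0.30; 0.23 with the length step), and 32 and 28 in 92Q. Chd5, a neuronal remodeller, scored 11 in wild type at 29 weeks and 9 at 12 weeks (0.26, and 0.17 with the length step). In 92Q it scored 12 and 9 at those ages. Chd5 passed the row filter at 29 weeks alone, in both genotypes, so the filter bears on its age directions. The acetyltransferase gene Crebbp scored 24 in wild type at 29 weeks and 21 at 12 weeks (0.18; 0.09 with the length step). Its relative Ep300 scored 20 in wild type at 29 weeks and 17 at 12 weeks (0.22; 0.13 with the length step). Of all 68 measured pathway genes 32 were higher, 15 lower and 21 equal at 29 weeks in wild type. Over all genes in wild type 32.5% were higher and 45.9% lower. Of the 68 pathway genes, 33 are in the longest class, which holds 1527 of 7635 genes. These shares are therefore not matched for length. In 92Q 30 of the pathway genes were higher, 15 lower and 23 equal, against 42.4% higher and 35.4% lower of all genes.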
